A study of Chlamydomonas reinhardtii with 9 samples.

Results

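The probes described here are those of a spotted array for the green alga Chlamydomonas reinhardtii to which the series' annotation gives no nuclear locus. Every 3 consecutive spots of the deposited table were taken as 1 probe, and the 11 probes annotated with a nuclear locus were set aside. This left 60 of 71 probes (180 of 213 spots), which are called by their spot numbers because no table used here names a gene for them. No sequence could be printed for the same reason. The annotation, and no measured value, decided which probes were kept. Each array was centred on the median of all 71 probes, of which these are 60, so about as many of them lie above 0 as below it by construction. The label could not be checked against gene identities: nothing in the files says which of the 60 probes are chloroplast genes, and what the authors wrote about chloroplast probes is not used here.

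Total RNA was compared on 9 arrays with 2 channels each. Channel 1 held RNA of the nonphotosynthetic mutant mcd1-1 on 3 arrays, of the nonphotosynthetic mutant mcd1-2 on 3 arrays, and of the photosynthetic suppressor mcd2-1 on 3 arrays. Channel 2 held RNA of the wild-type strain P17 on the arrays of both mutants and RNA of mcd1-2 on the suppressor arrays. The channels were not swapped on any array, so a probe's channel bias cannot be told apart from a strain difference in any comparison. The labels say nothing of culture conditions or of separate cultures for the arrays of 1 comparison, so p-values measure the spread between these arrays only, which may be technical.

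As background, the chloroplast gene petD encodes subunit IV of the cytochrome complex that passes electrons from photosystem II towards photosystem I, and cells without that complex cannot grow by photosynthesis. Many chloroplast mRNAs in Chlamydomonas persist only when a nuclear-encoded factor protects them from nucleases. MCD1 is the nuclear gene known to be needed for stable petD mRNA, and the labels describe these strains as petD mutants. The labels give mcd2-1 as a photosynthetic suppressor. None of the probes could be tied to petD or MCD1 from the tables used here.

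A value is the deposited log ratio averaged over 3 spots, minus the median of all 71 probes on that array. The base of the logarithm is taken as 2 and the direction as channel 1 over channel 2. Neither is stated in the sources used here. The base rests on a pair of single spots deposited at -11.63 and -13.4, too low for a natural log ratio of ordinary scanner intensities. Both belong to nuclear loci on suppressor replicate 3. The spot SD of spots 100 to 102, which hold the lower of them, was 7.443 there, so that spot stood far from its triplet. The background correction is not known, so these spots are weak ground for the base. The lowest deposited spot of an unannotated probe was -6.95, which would be possible in either base, so fold changes hold only if the base is 2. For the mutant arrays the direction is likely, resting on the order in the labels alone, which name the mutant before the wild type and put it in channel 1. If the ratios run the other way, every higher and lower below turns. For the suppressor arrays it is not settled. Over the 66 probes with values on all 9 arrays, suppressor replicates 1 and 2 correlated at -0.342 (Pearson's r across probes, which are not independent). Replicates 1 and 3 correlated at -0.109 and replicates 2 and 3 at 0.125, so no pair was close. Suppressor results are also given with the sign of replicate 1 turned. That turn was prompted by these same values, so p-values after it are descriptions and not tests.

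The 3 spots of an unannotated probe differed little. Their median SD was 0.053 on the mcd1-1 arrays, 0.0767 on the mcd1-2 arrays and 0.140 on the suppressor arrays. Arrays of 1 comparison differed more: a probe's SD over its arrays had a median of 0.36 in mcd1-1, of 0.454 in mcd1-2 and of 0.854 on the suppressor arrays. The number of arrays therefore limits the precision. The fit used below gives each probe 1 spread over all 9 arrays, so the median 95% interval reached 0.82 to either side of a probe's mean in each comparison. A probe was called changed when its adjusted p was under 0.05 in limma, with Benjamini-Hochberg adjustment over all 71 probes. Of the 60 unannotated probes, 4 were called in at least 1 of the 3 comparisons, against 5.63% of all probes, and 56 in none.

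**Figure D1:**
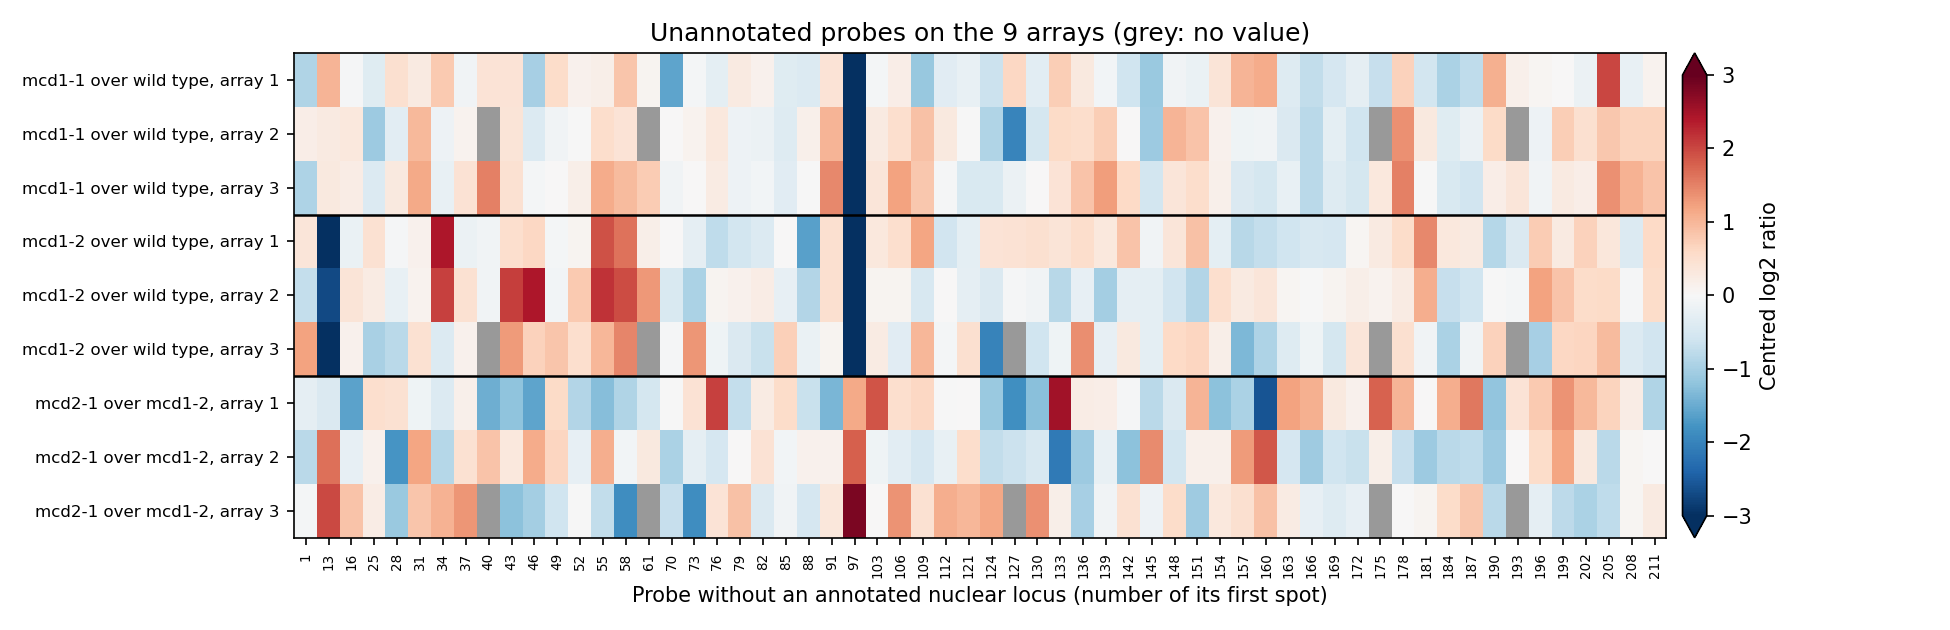
Centred log2 ratio (colour, with values beyond 3 in either direction drawn at the end of the scale) of the 60 unannotated probes in spot order (columns, by first spot) on the 9 arrays (rows); grey marks probes without a value. The column of spot 97 is blue on all 6 mutant arrays and red on all 3 suppressor arrays, and the column of spot 13 is blue on the mcd1-2 arrays alone among the mutants.

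The probe of spots 97 to 99 was far lower in both mutants than in the wild type. Its log2 ratios were -3.93, -5.49 and -6.60 in mcd1-1 and -5.11, -4.14 and -5.12 in mcd1-2. All 6 values lay below the value of every other unannotated probe on the same array. It averaged -5.34 ± 1.35 in mcd1-1 (SD, n = 3, limma adjusted p = 9.48e-09) and -4.79 ± 0.56 in mcd1-2 (SD, n = 3, limma adjusted p = 6.58e-08). On a base of 2 these are 40.5-fold and 27.7-fold lower levels, with 95% intervals of 21.1-fold to 78.0-fold and 14.4-fold to 53.2-fold. No intensities were used, so whether the mutant signal lay above background is unknown, as for every lower level below. With only the arrays of the mutant in question fitted, the limma adjusted p was 0.00374 in mcd1-1 and 0.00225 in mcd1-2. The difference between the mutants was 0.55 (mcd1-2 minus mcd1-1) and was not called. The 95% interval of that difference ran from -0.78 to 1.89.

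On the suppressor arrays the same probe stood at 1.13, 1.78 and 2.83 relative to mcd1-2, above 0 on 3 of 3 arrays. The mean was 1.92 ± 0.86 (SD, n = 3, limma adjusted p = 0.0282), a 3.77-fold higher level with a 95% interval from 1.96-fold to 7.26-fold. That interval rests on a spread pooled over all 9 arrays. The suppressor arrays spread more than the mutant arrays (median SD 0.854 against 0.36 and 0.454), so it may be too narrow. Spots 97 to 99 gave the sole call among the 60 unannotated probes in the suppressor comparison, where 1.41% of all probes were called. The call ended when the sign of replicate 1 was turned (1.16 ± 2.05, limma adjusted p = 0.267), when the suppressor arrays were fitted alone (limma adjusted p = 0.116), under array weights (limma adjusted p = 0.0915) and under a block for the arrays that lack the same probes (limma adjusted p = 0.0869). It also ended without mcd1-2 replicate 3 (limma adjusted p = 0.0728), suppressor replicate 2 (0.0605) or suppressor replicate 3 (0.364). The 3 spots of this probe had an SD between 0.0269 and 0.602 over the 9 arrays, small beside the means of this probe.

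The probe of spots 13 to 15 separated the mutants. It stood at -3.02, -2.71 and -3.75 in mcd1-2 and at 1.02, 0.28 and 0.30 in mcd1-1. Every mcd1-2 array lay below 0 and every mcd1-1 array above it. In mcd1-2 the mean was -3.16 ± 0.53 (SD, n = 3, limma adjusted p = 1.16e-05), 8.95-fold lower than in the wild type on a base of 2. The mean in mcd1-1 was 0.53 ± 0.42 (SD, n = 3), which was not called. The difference, mcd1-2 minus mcd1-1, was -3.69 with a 95% interval from -4.95 to -2.43 (limma adjusted p = 0.000366). It was the only one of 60 unannotated probes called in that contrast, against 1.41% of all probes. On the suppressor arrays it stood at -0.44, 1.65 and 1.97, with a mean of 1.06 ± 1.31 (SD, n = 3, limma adjusted p = 0.389). Replicate 1 differed in sign from replicates 2 and 3, and with that sign turned the mean was 1.35 ± 0.81 (SD, n = 3, limma adjusted p = 0.0461). The turn was prompted by these same values, so that p-value is a description and not a test.

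A pair of adjacent probes rose in mcd1-2. Spots 55 to 57 stood at 1.92, 2.18 and 0.99 in mcd1-2, and spots 58 to 60 at 1.63, 1.95 and 1.45. The first averaged 1.69 ± 0.62 (SD, n = 3, limma adjusted p = 0.013), a 3.24-fold higher level than in the wild type, and the second 1.68 ± 0.25 (SD, n = 3, limma adjusted p = 0.00564), 3.20-fold higher. In mcd1-1 the values were also above 0 on every array, at 0.16, 0.52 and 1.12 for spots 55 to 57 and at 0.82, 0.41 and 0.94 for spots 58 to 60. The arrays of the mutants overlapped for spots 55 to 57 and not for spots 58 to 60. The differences, mcd1-2 minus mcd1-1, were 1.09 and 0.95, and neither was called (limma adjusted p = 0.862 for both). Their 95% intervals ran from -0.16 to 2.35 and from -0.16 to 2.06. Relative to mcd1-2, the suppressor stood at -1.27, 1.09 and -0.73 for spots 55 to 57, and at -0.91, -0.09 and -1.85 for spots 58 to 60. These suppressor means, -0.30 and -0.95, were not called, and with the sign of replicate 1 turned they were 0.54 and -0.35. Both calls in mcd1-2 were lost without its replicate 1 (limma adjusted p = 0.124 for spots 55 to 57 and 0.0519 for spots 58 to 60) or without its replicate 2 (0.227 and 0.116). That of spots 55 to 57 was also lost when the mcd1-2 arrays were fitted alone (limma adjusted p = 0.0637).

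**Figure D2:**
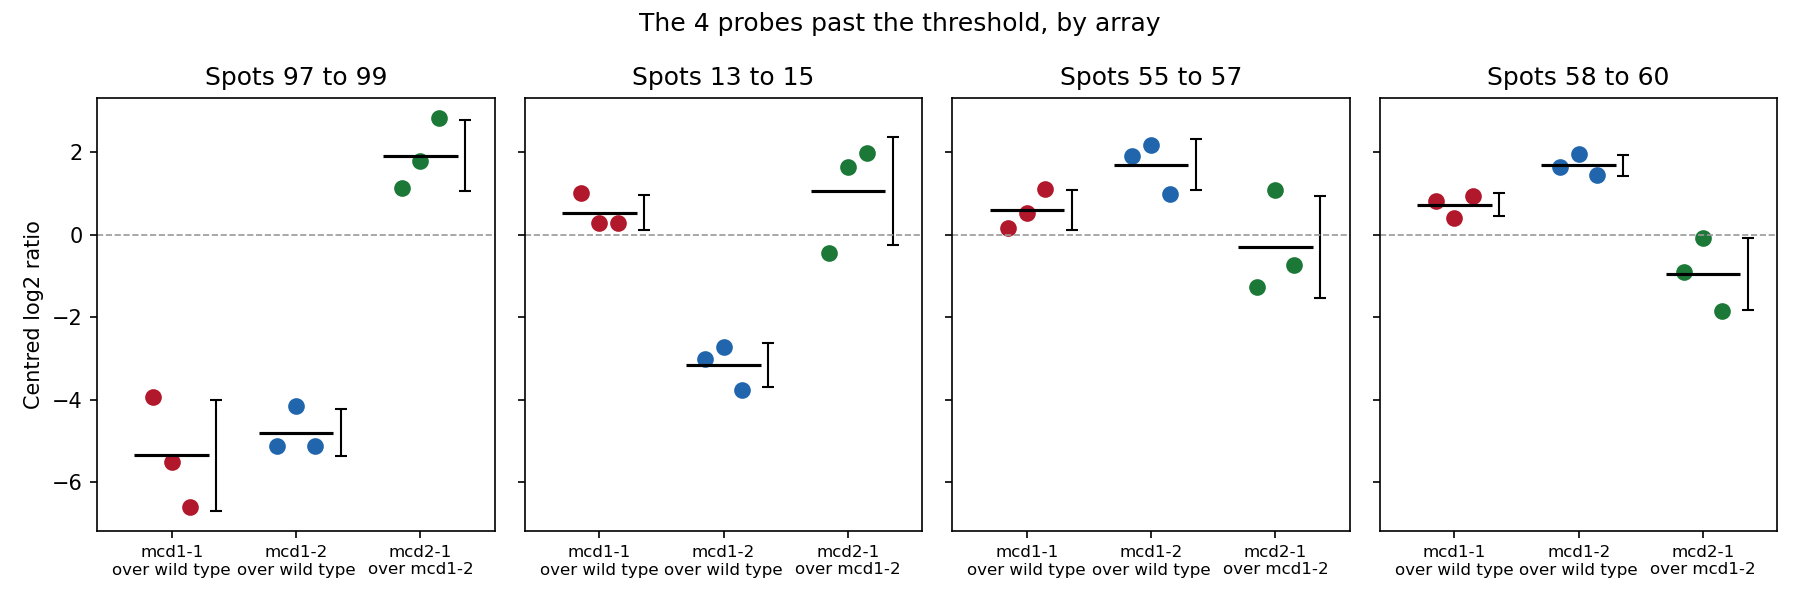
Centred log2 ratio by array (points, in the order of the replicate numbers) of the 4 called probes in the 3 comparisons; horizontal bars are means and error bars 1 SD over 3 arrays. Spots 97 to 99 lie at -3.93 or lower on all 6 mutant arrays, while spots 13 to 15 lie at -2.71 or lower in mcd1-2 and at 0.28 or higher in mcd1-1.

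Within mcd1-1, the 59 other unannotated probes spanned a far narrower range than the gap to spots 97 to 99. No other probe was called, so 1 of 60 was called against 1.41% of all probes, and 6 of 60 had an unadjusted p under 0.05, against 8.45%. Means beyond 1 in size were found for 3 of 60, against 4.23%. The quartiles of the 60 means were -0.29 and 0.44, and 36 means lay within 0.5 of 0. The 10 highest means ran from 0.60 to 1.39. Highest was the probe of spots 205 to 207, with values of 2.00, 0.81 and 1.36 and a mean of 1.39 ± 0.60 (SD, n = 3, limma adjusted p = 0.0643). Spots 178 to 180 followed at 0.68, 1.38 and 1.52, with a mean of 1.19 ± 0.45 (SD, n = 3, limma adjusted p = 0.12). Both probes were above 0 on 3 of 3 arrays, as were spots 91 to 93 (mean 0.96) and 31 to 33 (mean 0.79). After spots 97 to 99 the lowest means were -0.92 for spots 145 to 147 and -0.79 for spots 166 to 168.

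Some low values in mcd1-1 were tight between arrays. Spots 166 to 168 stood at -0.74, -0.82 and -0.80, an SD of 0.0402, and spots 85 to 87 at -0.37, -0.39 and -0.33, an SD of 0.0288. The fit gives each probe 1 spread over all 9 arrays, and the 95% interval of spots 166 to 168 reached from -1.60 to 0.03. Arrays with a value shared 1 sign for 30 of 60 probes, 17 above 0 and 13 below, against 45.1% of all probes. Replicates 2 and 3 of mcd1-1 were the closest pair: their median absolute difference over 56 unannotated probes was 0.31, against 0.59 between replicates 1 and 2 and 0.50 between replicates 1 and 3. Opposite signs on replicates 2 and 3 were found for 8 of 56 probes, against 26 of 56 on replicates 1 and 2. That difference of 0.31 exceeded the median spot SD of 0.053. With array weights, which counted replicates 2 and 3 at 2.73 and 2.65 and replicate 1 at 0.81, 15 unannotated probes passed the threshold in mcd1-1, against 22.5% of all probes. Robust moderation gave 2, as did leaving out the spots below -10, each against 2.82% of all probes. Without suppressor replicate 1 there were 3, against 4.23% of all probes, and without suppressor replicate 2 or 3 there were 2, against 2.82%; the added probes were spots 205 to 207 and, in the first case, 178 to 180.

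In mcd1-2, 4 of 60 unannotated probes were called, against 5.63% of all probes. They were 2 lower and 2 higher, each against 2.82% of all probes, and 8 of 60 had an unadjusted p under 0.05, against 11.3%. With array weights there were 8 calls, against 11.3% of all probes, and without suppressor replicate 2 there were 7, against 9.86%, spots 34 to 36, 43 to 45 and 46 to 48 being among those added in both. Means beyond 1 in size numbered 7 of 60, against 9.86% of all probes. Besides the 4 called probes these were spots 34 to 36, 43 to 45 and 46 to 48. Spots 34 to 36 stood at 2.42, 2.05 and -0.40, with a mean of 1.36 ± 1.53 (SD, n = 3, limma adjusted p = 0.122). Replicate 3 was thus opposite in sign to the other two. Spots 43 to 45 stood at 0.49, 2.08 and 1.27 with a mean of 1.28 ± 0.79 (SD, n = 3, limma adjusted p = 0.0601), which was the probe closest to the threshold from outside. Spots 46 to 48 stood at 0.62, 2.43 and 0.69, where replicate 2 was the high one, with a mean of 1.25 ± 1.03 (SD, n = 3, limma adjusted p = 0.152).

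The 5 highest means in mcd1-2 all belonged to spots between 34 and 60, a range drawn after the values were seen. Other unannotated probes in that range were lower. Spots 37 to 39 and 40 to 42 averaged 0.14 and -0.11 (n = 2 for the latter). Spots 49 to 51 and 52 to 54 averaged 0.23 and 0.46. The 10 highest means ran from 0.58 to 1.69 and also held spots 181 to 183 (0.82), 61 to 63 (0.74, n = 2) and the adjacent spots 199 to 201, 202 to 204 and 205 to 207 (0.58, 0.63 and 0.62). Spots 202 to 204 were tight, at 0.70, 0.54 and 0.64. Below 0, the gap between the called probes and the rest was wide: after spots 97 to 99 and 13 to 15 the lowest mean was that of spots 88 to 90, at -1.62, -0.89 and -0.20, with a mean of -0.90 ± 0.71 (SD, n = 3, limma adjusted p = 0.216). The quartiles of the 60 means were -0.26 and 0.33. Arrays with a value shared 1 sign for 24 of 60 probes, against 39.4% of all probes.

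**Figure D3:**
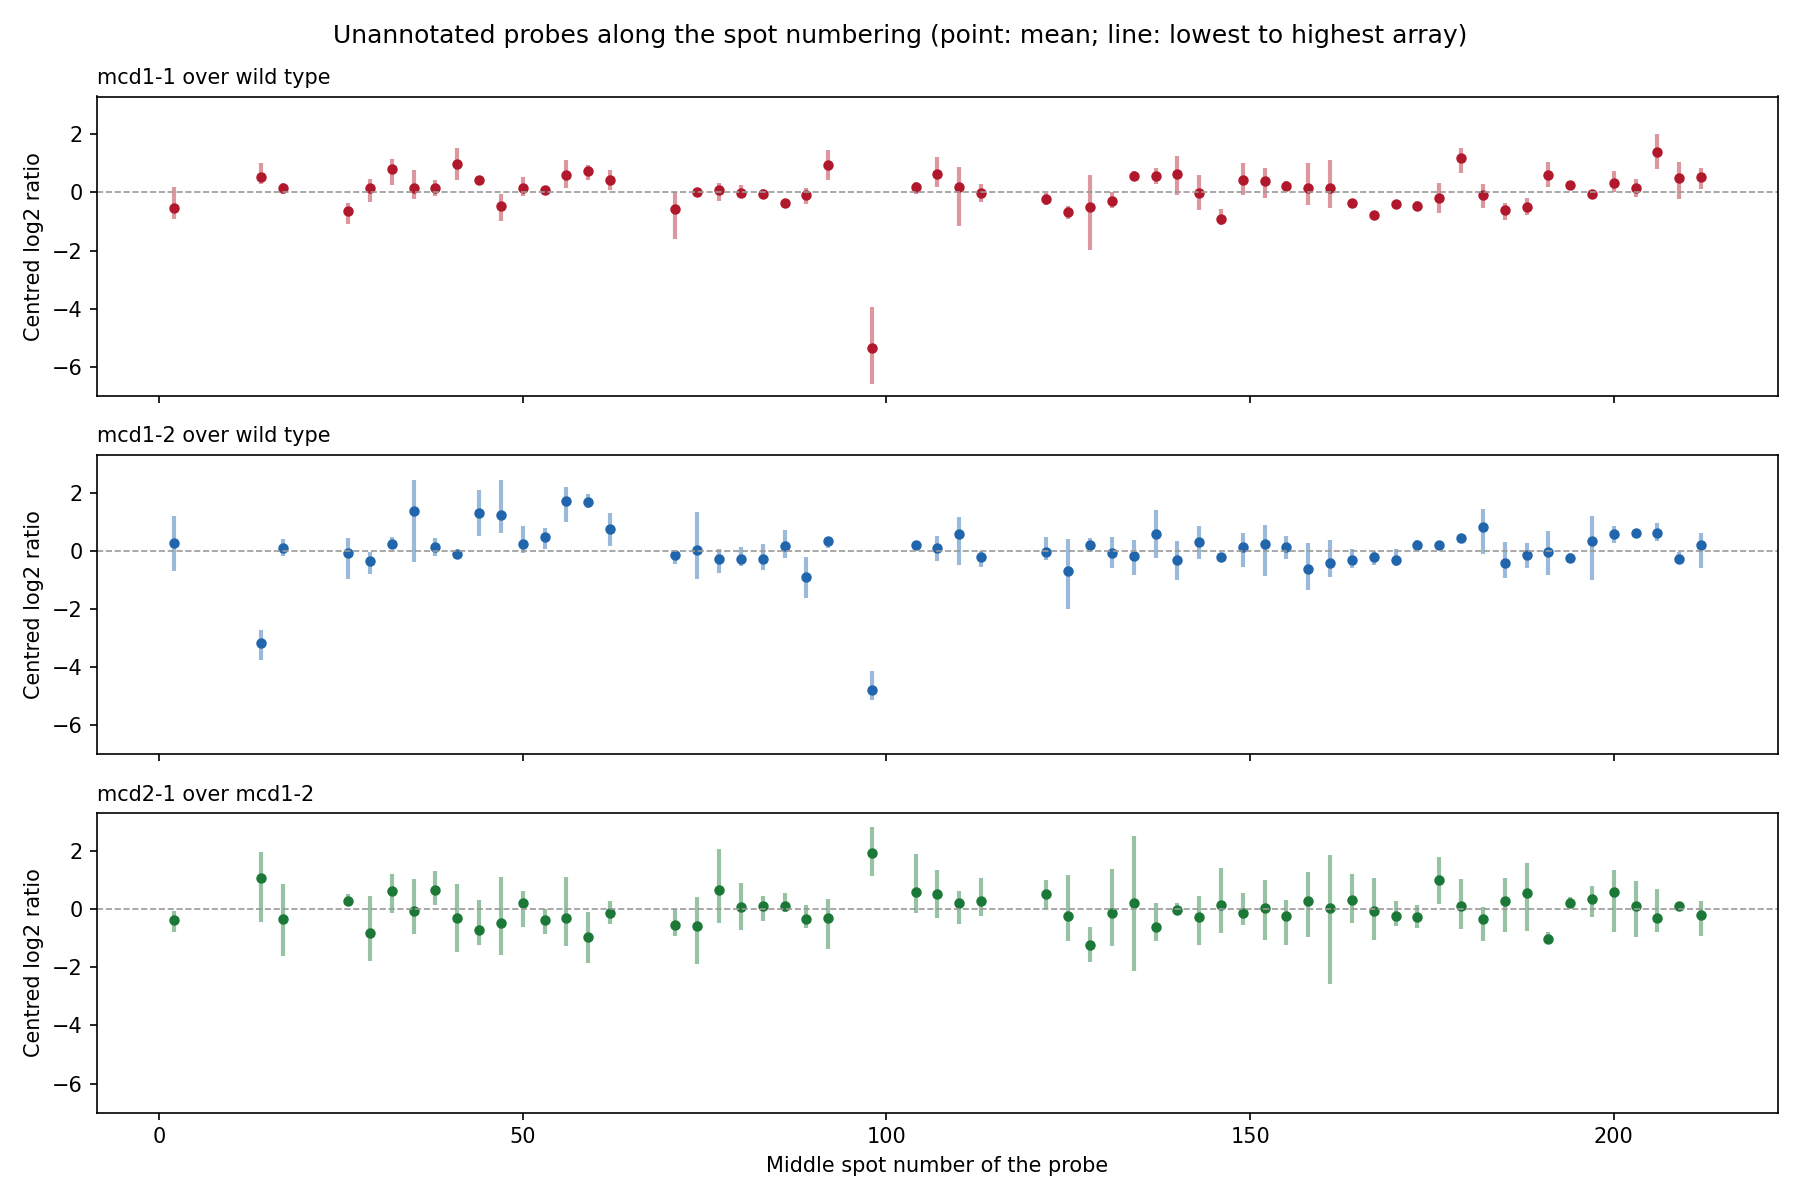
Mean centred log2 ratio (points) of the 60 unannotated probes against the middle spot number, with vertical lines from the lowest to the highest array, for both mutants over wild type and for mcd2-1 over mcd1-2. The 5 highest means in mcd1-2 lie between spots 34 and 60. Among them are the lower means of spots 37 to 39, 40 to 42, 49 to 51 and 52 to 54. In the suppressor comparison, drawn as deposited, the longest lines belong to spots 133 to 135 and 160 to 162, an order that changes with the sign of replicate 1.

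When the mutants were set against each other over all 60 unannotated probes, the arrays of mcd1-2 and mcd1-1 did not overlap for 13 of 60 probes, against 18.3% of all probes. The unadjusted p was under 0.05 for 2 of 60, against 2.82%. After spots 13 to 15 the largest of these differences was that of spots 46 to 48, averaging 1.25 in mcd1-2 and -0.48 in mcd1-1. That gap of 1.73 had a 95% interval from 0.35 to 3.11 (limma adjusted p = 0.597). Spots 40 to 42 averaged -0.11 in mcd1-2 and 0.97 in mcd1-1, each over 2 arrays. Spots 172 to 174 had a mean of 0.21 in mcd1-2 and -0.47 in mcd1-1, above 0 on every mcd1-2 array and below 0 on every mcd1-1 array. None of these 3 differences was called. For no unannotated probe did the 95% interval of the difference lie within 1 of 0, and for 46 of 60 it lay within 2. Both mutants were compared with the same wild-type strain, so their values are set side by side without a correlation. Whether the same RNA preparation was used is not given, so the arrays of both mutants may not be independent.

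Unannotated probes spread most between arrays in the suppressor comparison. The SD between arrays was above 1 for 20 of 60 probes there, against 5 in mcd1-2 and 3 in mcd1-1. Over all 71 probes these counts were 23, 6 and 4. The median SD of the nuclear loci was also highest there, at 0.709 against 0.370 in mcd1-2 and 0.350 in mcd1-1. The wider spread is thus not particular to unannotated probes. With the sign of replicate 1 turned, the SD was above 1 for 16 of 60, which was not counted over all probes. Spots 160 to 162 stood at -2.59, 1.86 and 0.87, and spots 133 to 135 at 2.53, -2.11 and 0.17. Replicate 1 was opposite to replicate 2 for both. The SDs were 2.33 for spots 160 to 162 and 2.32 for spots 133 to 135, and with the sign turned 0.859 and 1.46, below the 2.05 of spots 97 to 99. Over the 60 probes, replicates 1 and 2 had opposite signs for 33. Over the 55 with values on every suppressor array, replicates 1 and 3 had opposite signs for 30 and replicates 2 and 3 for 28. For the 55 unannotated probes with values on all 9 arrays, the correlation of replicates 1 and 2 was -0.332. That of replicates 1 and 3 was -0.035, and that of replicates 2 and 3 was 0.207. The 3 spots of spots 133 to 135 on replicate 2 stood at -4.89, -1.43 and -0.02, the widest spot spread of any unannotated probe, so that value is poorly determined.

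**Figure D4:**
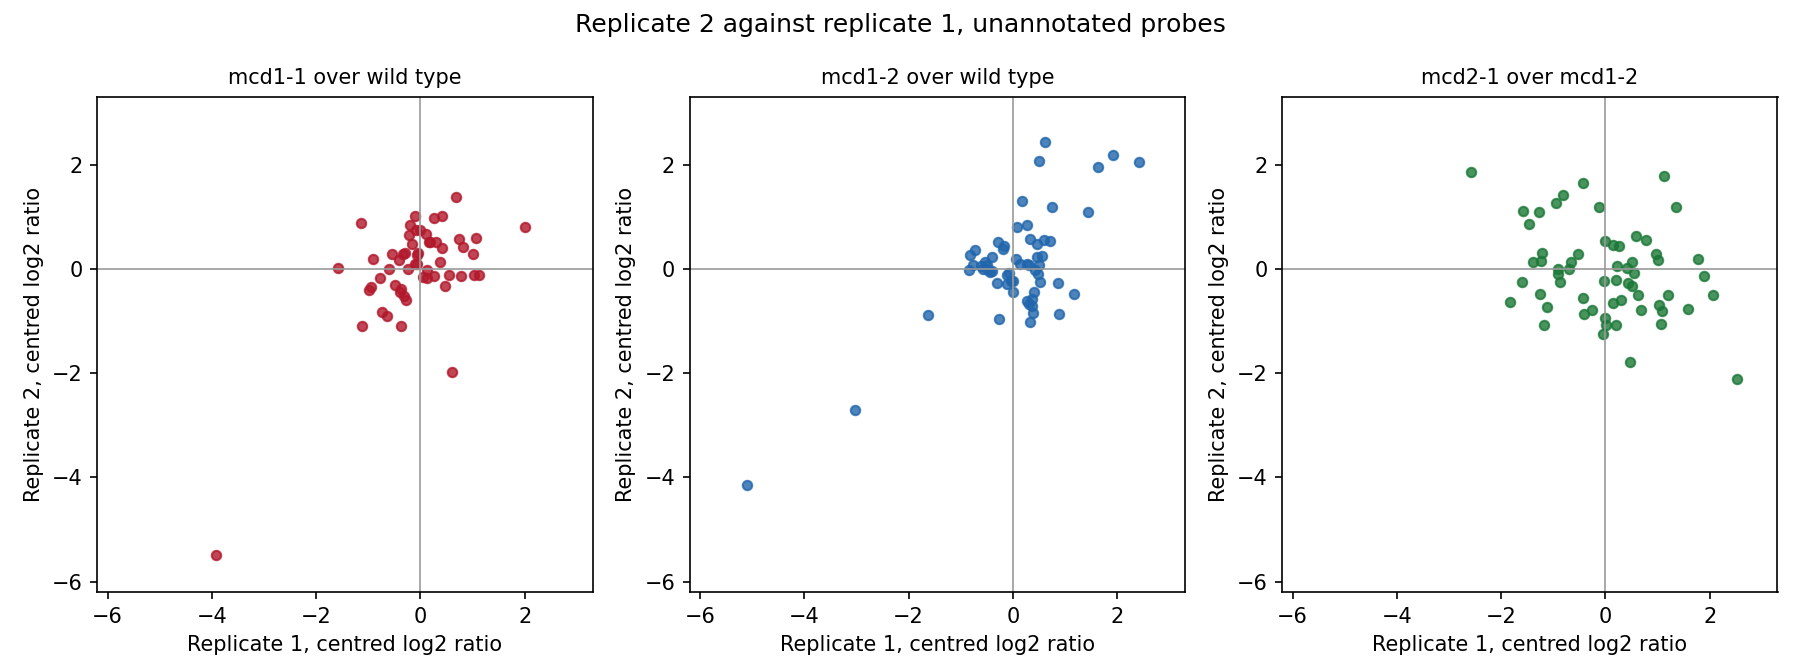
Centred log2 ratio of the 60 unannotated probes on replicate 2 (vertical axis) against replicate 1 (horizontal axis) in each comparison, on equal scales; 56 probes have both values in mcd1-1. In both mutant panels spots 97 to 99 lie far to the lower left. Probes in the quadrants of opposite sign number 26 of 56 in mcd1-1, 24 of 60 in mcd1-2 and 33 of 60 in the suppressor panel.

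Fewer probes kept 1 sign on the suppressor arrays than on the arrays of either mutant, a difference that was not tested. Arrays with a value shared 1 sign for 12 of 60 unannotated probes, against 19.7% of all probes, and for 18 of 60 with the sign of replicate 1 turned, against 31.0% of all probes. Among them were spots 190 to 192, at -1.18, -1.08 and -0.80, with a mean of -1.02 ± 0.20 (SD, n = 3, limma adjusted p = 0.389). With the sign turned that mean was -0.23. The lowest mean, -1.23, belonged to spots 127 to 129, measured on 2 arrays, and it was 0.60 with the sign turned. The 10 lowest means ran from -1.23 to -0.38 and the 10 highest from 0.51 to 1.92, and with the sign turned from -1.49 to -0.64 and from 0.62 to 1.77. Means beyond 1 in size were found for 4 of 60, against 7.04% of all probes, and for 6 of 60 with the sign turned. The unadjusted p was under 0.05 for 5 of 60, against 8.45% of all probes. With replicate 1 turned, 2 unannotated probes passed the threshold, while 4.23% of all probes did. They were spots 13 to 15, as given above, and spots 160 to 162, whose turned mean was 1.77 ± 0.86 (SD, n = 3, limma adjusted p = 0.0387). The turn was prompted by these same values, so these passes are descriptions and not tests. As deposited, spots 160 to 162 had a mean of 0.05. Without suppressor replicate 1, spots 13 to 15, 28 to 30 and 97 to 99 passed, against 4.23% of all probes.

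Most unannotated probes showed modest values throughout. Means within 0.5 of 0 in all 3 comparisons were found for 19 of 60 unannotated probes and 6 of 11 nuclear loci. A mean beyond 1 in at least 1 comparison was found for 11 of 60 unannotated probes and 1 of 11 nuclear loci. The 95% interval lay within 1 of 0 for 14 of 60 unannotated probes in mcd1-1, 17 in mcd1-2 and 14 in the suppressor comparison (13 with the sign turned), and within 2 for 57, 53 and 57 (55 with the sign turned). For most of these probes a 2-fold change in at least 1 direction therefore lay inside the interval. Each interval rests on a spread pooled over all 9 arrays, and the suppressor arrays spread more than those of the mutants. What the arrays of 1 comparison alone leave possible was not counted.

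Unannotated probes lay slightly higher than the nuclear loci in the mutants. Their median mean was 0.14 in mcd1-1, against -0.14 for the 11 nuclear loci and -0.01 for all probes. In mcd1-2 it was 0.12, against -0.26 for the nuclear loci and 0.02 for all probes. By array, the median of the unannotated probes was -0.06, 0.12 and 0.19 in mcd1-1, against 0.18, -0.52 and -0.40 for the nuclear loci. In mcd1-2 it was 0.22, 0.06 and -0.03 against -0.41, -0.17 and 0.03. Replicate 1 of mcd1-1 and replicate 3 of mcd1-2 thus ran the other way. On the suppressor arrays it was 0.07, -0.11 and 0.05, against -0.28, 0.56 and -0.19 for the nuclear loci, where turning replicate 1 turns the first value of both. Each array was centred on the median of all probes, so only the gap between both kinds of probe can be read, and it was not tested.

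Adjacent probes tended to have like values. Among the pairs of unannotated probes next to each other in spot order (44 to 53 pairs per array), Pearson's r was above 0 on 9 of 9 arrays, from 0.0467 on mcd1-1 replicate 1 to 0.405 on mcd1-1 replicate 3. Spots 97 to 99 have nuclear loci on either side and are in none of these pairs. Leaving that probe out at other distances too, r ranged from -0.169 to 0.235 at 2 probes and from -0.307 to 0.325 at 10 probes. These pairs share probes and an array, so the values are descriptions only. At least 3 adjacent unannotated probes with 1 sign on every array with a value formed 2 runs in mcd1-1 and 3 in mcd1-2. None formed in the suppressor comparison as deposited. In mcd1-1 the 4 probes of spots 163 to 174 lay below 0 with a median mean of -0.43, and the 3 probes of spots 55 to 63 lay above 0 with a median mean of 0.60. In mcd1-2 the 4 probes of spots 52 to 63 lay above 0 with a median mean of 1.21. The other mcd1-2 runs, spots 172 to 180 and 199 to 207, had median means of 0.21 and 0.62. Spots 61 to 63, within the runs of spots 55 to 63 and 52 to 63, had values on 2 arrays of each mutant. So did spots 175 to 177, within the run of spots 172 to 180. With the sign of suppressor replicate 1 turned there were 2 runs, spots 154 to 162 above 0 and spots 166 to 174 below 0. Whether neighbours share a gene, an operon or a place on the slide is not given in the sources used here, and the part of position was not tested.

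Which profiles were most like that of spots 97 to 99 depended on the sign of suppressor replicate 1. Over the 9 arrays, the highest Pearson's r with it was 0.718 for spots 121 to 123, followed by 0.598 for spots 37 to 39, 0.568 for spots 25 to 27, 0.548 for spots 13 to 15 and 0.530 for spots 163 to 165. With that sign turned these were 0.781, 0.591, 0.431, 0.604 and 0.105, and the 5 highest were spots 121 to 123 (0.781), 160 to 162 (0.707), 79 to 81 (0.706), 157 to 159 (0.661) and 145 to 147 (0.649). Over the 6 mutant arrays alone, which the turning leaves as they are, r was 0.108, -0.328, 0.305, -0.159 and 0.168 for the first 5 probes. For spots 160 to 162, 79 to 81, 157 to 159 and 145 to 147 it was 0.687, 0.518, 0.557 and -0.094. The probe first under either sign was far from it in size: spots 121 to 123 had means of -0.23 in mcd1-1, -0.03 in mcd1-2 and 0.51 in the suppressor comparison, where replicate 1 stood at 0.

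Probes that lacked all 3 spots on an array were unannotated ones only, while single spots were also missing at nuclear loci. The same 4 probes lacked all spots on replicate 2 of mcd1-1 and on replicate 3 of both mcd1-2 and the suppressor: spots 40 to 42, 61 to 63, 175 to 177 and 193 to 195. Spots 127 to 129 also lacked values on mcd1-2 replicate 3 and suppressor replicate 3. The other 55 unannotated probes and all 11 nuclear loci had values on all 9 arrays. These 5 probes enter the fit with the arrays they have, so their intervals are wider. Spots 40 to 42 stood at 0.42 and 1.52 in mcd1-1, at -0.10 and -0.11 in mcd1-2, and at -1.47 and 0.86 in the suppressor comparison. Spots 61 to 63 stood at 0.07 and 0.77 in mcd1-1, at 0.17 and 1.31 in mcd1-2, and at -0.53 and 0.29 in the suppressor comparison. Spots 193 to 195 stood at 0.15 and 0.37 in mcd1-1, at -0.44 and -0.06 in mcd1-2, and at 0.41 and 0.02 in the suppressor comparison. For spots 175 to 177 the values were -0.70 and 0.32 in mcd1-1, 0.27 and 0.09 in mcd1-2, and 1.78 and 0.19 in the suppressor comparison. Spots 127 to 129 stood at 0.61, -1.98 and -0.18 in mcd1-1, where the spots of replicate 2 ran from -3.46 to -0.43, and at 0.43 and -0.03 in mcd1-2. None of the 5 was called, and turning the sign of suppressor replicate 1 turns the first suppressor value of each. The 3 arrays that share the missing probes gave -5.49, -5.12 and 2.83 for spots 97 to 99 in mcd1-1, mcd1-2 and the suppressor comparison, and the other arrays averaged -5.27, -4.63 and 1.46. For spots 13 to 15 in mcd1-2 the value was -3.75 on that array and -2.87 on the other two. For spots 55 to 57 and 58 to 60 in mcd1-2 it was 0.99 and 1.45 on that array and 2.05 and 1.79 on the other two.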

How the data were processed

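The authors deposited 1 table of log ratios, here read as log2, for 213 spots on 9 arrays of 2 channels. The sources used here do not give the scanner, dyes, background correction, normalization, base, centring or direction, and no intensities were used, so no level above background could be set. Every 3 consecutive spots were averaged (median SD of 3 spots 0.0844, against 0.328 and 0.337 for triplets starting 1 or 2 spots later), and the array's median of all 71 probes was taken off. A model with a mean per group over all 9 arrays was fitted with limma 3.58.1 in R 4.3.3 (lmFit, eBayes), with two-sided p-values adjusted by Benjamini-Hochberg in each of 4 comparisons, each over 71 probes. The fit was tried on simulated data in which a probe had the same spread in every group. The real suppressor arrays spread more than the others, so that trial does not bear on false calls in their comparison. The smallest p of an exact sign-flip test over 3 arrays is 0.25, and of an exact permutation of 3 against 3 it is 0.1, so these p-values rest on the model. Probes named were those past the threshold, the 10 highest and 10 lowest means, the 5 profiles most like the lowest probe, and probes with missing values. Other probes were chosen after their values were seen. The members follow from the annotation alone, but that rule and the lists were set with earlier results of these data known. Background correction, slide and dim-probe alternatives could not be run without intensities or slide names.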

Additional observations from a re-analysis of the deposited data

Results flagged for a closer look

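The probe of spots 13 to 15 differed between the mutants by a test of the difference itself. It averaged -3.16 in mcd1-2 and 0.53 in mcd1-1. The difference, mcd1-2 minus mcd1-1, was -3.69 (limma adjusted p = 0.000366), with all 3 mcd1-2 arrays below all 3 mcd1-1 arrays. Over its 18 alternatives the difference ranged from -3.92 to -3.40 and the limma adjusted p from 2.73e-06 to 0.011.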

How the results depend on the processing

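The calls of spots 97 to 99 in both mutants and of spots 13 to 15 in mcd1-2 and in the difference between the mutants held in 18 of 18 alternatives each. Spots 55 to 57 and 58 to 60 kept their call in mcd1-2 in 15 and 16 of 18, and spots 97 to 99 in the suppressor comparison in 12 of 19. In mcd1-1 the number of unannotated probes called was 15 with array weights, against 22.5% of all probes, though estimation of the weights stopped before full convergence. It was 2 with robust moderation or without spots below -10, each against 2.82%. In mcd1-2 it was 8 with array weights, against 11.3% of all probes. In the suppressor comparison it was 0 with array weights, with only the suppressor arrays, or with a block for the arrays that lack the same probes. It was 2 with the sign of replicate 1 turned, against 4.23% of all probes. Leaving out single arrays gave 1 to 3 calls in mcd1-1, 2 to 7 in mcd1-2, 0 to 3 in the suppressor comparison and 1 to 1 in the difference. The 3 calls in mcd1-1 came without suppressor replicate 1, against 4.23% of all probes. In mcd1-2 the 2 came without its own replicate 1 or 2, and the 7 without suppressor replicate 2, the latter against 9.86%. The 3 in the suppressor comparison came without its replicate 1, against 4.23%. Shares of all probes were not counted for the lowest numbers, so those are not to be read as particular to unannotated probes. With the sign of suppressor replicate 1 turned, 35 of 60 suppressor means changed sign. Those among the 10 highest, the 10 lowest or the called probes became: spots 43 to 45 (0.0957), 46 to 48 (0.55), 52 to 54 (0.20), 55 to 57 (0.54), 76 to 78 (-0.71), 103 to 105 (-0.67), 127 to 129 (0.60), 175 to 177 (-0.80), 187 to 189 (-0.51) and 199 to 201 (-0.32). Others named in the report became 0.19 (spots 34 to 36), -0.05 (25 to 27), 1.17 (40 to 42), 0.41 (61 to 63), -0.24 (85 to 87), 0.10 (88 to 90), 0.62 (91 to 93), -1.49 (133 to 135), -0.48 (163 to 165), -0.57 (178 to 180), -0.19 (193 to 195) and -0.54 (202 to 204). The cause was not tested. With the block for arrays that lack the same probes, spots 127 to 129 stood at -0.0147 in the difference between the mutants.

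Leaving out single arrays also turned the sign of some means, none of them a call of the report. In mcd1-1 spots 127 to 129 ranged from -1.0805 to 0.2154, and in mcd1-2 spots 139 to 141 from -0.6304 to 0.0397. In the suppressor comparison spots 46 to 48 ranged from -1.3028 to 0.0434, 55 to 57 from -0.9983 to 0.1821, 73 to 75 from -1.0732 to 0.0755, 76 to 78 from -0.0415 to 1.2367, and 103 to 105 from -0.0598 to 0.9477. In the difference between the mutants, spots 97 to 99 ranged from -0.0798 to 1.2593 and 127 to 129 from -0.0147 to 1.2813. Over 83 pairs of a probe and a comparison, 1441 of 1508 alternatives kept direction and side of the threshold, 35 passed it newly, 12 fell short of it and 20 turned sign.

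With the replicate number of the labels as a block, 1, 4, 1 and 1 unannotated probes were called in mcd1-1, mcd1-2, the suppressor comparison and the difference. The counts were the same without it, where 1.41%, 5.63%, 1.41% and 1.41% of all probes were called. Deviations from the group means of same-numbered arrays correlated between -0.467 and 0.393 across 66 probes, so the numbers were not taken as pairing the arrays. The 3 arrays per comparison and the spread pooled over all 9 arrays limit every interval, and signal over background is unknown.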
